A study of Mus musculus with 70 samples.

Results

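S100 proteins are small calcium-binding proteins, and several of them act as alarmins when they leave the cell. Of the 52636 gene rows in the count table, 7 were chosen by name as members of this family found in leukocytes: S100a4, S100a6, S100a8, S100a9, S100a10, S100a11 and S100a13. All 7 were in the table and were measured in 4 sorted leukocyte types of unstressed control (CON), stress-susceptible (SUS) and resilient (RES) mice. The mice were C57BL/6J animals of 7 to 8 weeks, and the SUS and RES mice had been through chronic social defeat stress (CSDS), in which an aggressive CD-1 mouse attacks the experimental mouse daily over 10 days. Stressed mice were divided by a social interaction (SI) test, the ratio of time spent near a caged mouse when present vs. absent, into SUS mice below a ratio of 1 and RES mice at or above it. CON mice were housed in pairs across a divider and not defeated. Ly6Chigh monocytes (the classical, inflammatory type), Ly6Clow monocytes (the patrolling type), B cells, and T cells were isolated from trunk blood by flow cytometry after a stain that included an antibody to the neutrophil marker Ly6G. The labels name the source as brain, whereas the study's methods describe blood, and this conflict was not resolved.

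Most S100 proteins form dimers whose shape changes when calcium binds, which exposes a surface for partner proteins. S100A8 and S100A9 pair as calprotectin, are stored in large amounts in neutrophils and in smaller amounts in monocytes, and signal through TLR4 and RAGE once released. S100A10 works as a partner of annexin A2 at the plasma membrane with little dependence on calcium, S100A11 binds annexin A1, S100A6 and S100A4 act on the cytoskeleton and cell movement, and S100A13 takes part in the release of proteins that lack a signal peptide.

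There were 6 libraries for each combination of cell type and condition, except 4 of Ly6Clow monocytes in CON mice. The total per library ran from 19769835 to 67038231 counts, with a median of 37105584. Library 52, labelled B cells of a RES mouse, held the T cell gene Cd3e at 412 and the B cell gene Cd79a at 5.76 CPM (counts per 1000000 counts of the library, scaled by TMM), and library 70, labelled T cells of a RES mouse, held Cd79a at 1417 and Cd3e at 0.143 CPM. These went against their labels and were left out, which gave 5 RES libraries in each of these cell types and 68 libraries in all. In the remaining libraries the labelled cell types carried their markers. Ly6c2 was at 244 CPM or more in every Ly6Chigh library and at 2.66 CPM or less in every Ly6Clow library. Cd79a was at 1167 CPM or more in every B cell library, and Cd3e at 372 CPM or more in every T cell library. A sum of 5 Ly6Clow markers (Ace, Nr4a1, Cx3cr1, Treml4 and Spn) was between 5412 and 7034 CPM in Ly6Clow CON libraries. In Ly6Chigh CON libraries it was between 1388 and 1736 CPM. Ly6Clow libraries also held genes of natural killer cells. The sum of Ncr1, Klrb1c and Gzma was between 171 and 605 CPM in CON, against 0.775 to 29.1 CPM in Ly6Chigh CON libraries. The part of such cells in the Ly6Clow levels was not tested. The labels name no mouse, so the libraries were treated as independent, and p-values measure only the spread between these libraries. In bulk samples of this kind, fewer cells of a type and less RNA per cell cannot be told apart. Levels are CPM after TMM normalization over the 68 libraries (for libraries 52 and 70, over all 70) unless given per kilobase of exon.

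All 7 genes lie on chromosome 3 of GRCm38, in 2 groups. S100a13 (90514435 to 90524581, plus strand), S100a4 (90603771 to 90606045, plus), S100a6 (90612882 to 90624181, plus), S100a8 (90668978 to 90670035, plus) and S100a9 (90692632 to 90695721, minus) form the first, and S100a11 (93520488 to 93526287, plus) and S100a10 (93555080 to 93564643, plus) the second. S100a4 shares 302 of its 584 exonic bases with the predicted gene Gm42674 on the same strand, which had no counts in any library used. How reads over the shared bases were assigned is not given, so some reads of S100a4 may have gone uncounted. The other 6 overlapped no exon of another gene.

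RefSeq promoters of 300 bases, from 250 before to 50 after the gene start on GRCm38.p6, were given for 6 of the 7 members, and S100a10 had none. Those of S100a8 and S100a9 are shown because both genes followed each other over the libraries, and that of S100a11 because it had the largest of the changes that passed the test. Each is printed 5′ to 3′ on the strand of its gene, and capitals mark the letters of the motifs searched on both strands: TATAAA, the TATA box, TTNCNNAA, the core of a C/EBP site, GAGGAA, the core of a PU.1 site, and the glucocorticoid receptor element, given by its name alone.
S100a8 (chr3:90668821-90669120, plus strand): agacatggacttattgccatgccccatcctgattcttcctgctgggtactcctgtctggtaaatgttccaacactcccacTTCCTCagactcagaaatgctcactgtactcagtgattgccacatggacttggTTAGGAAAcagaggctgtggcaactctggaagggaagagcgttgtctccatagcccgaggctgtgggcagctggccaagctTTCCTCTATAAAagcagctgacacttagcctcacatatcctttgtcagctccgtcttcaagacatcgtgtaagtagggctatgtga
S100a9 (chr3:90695672-90695971, minus strand): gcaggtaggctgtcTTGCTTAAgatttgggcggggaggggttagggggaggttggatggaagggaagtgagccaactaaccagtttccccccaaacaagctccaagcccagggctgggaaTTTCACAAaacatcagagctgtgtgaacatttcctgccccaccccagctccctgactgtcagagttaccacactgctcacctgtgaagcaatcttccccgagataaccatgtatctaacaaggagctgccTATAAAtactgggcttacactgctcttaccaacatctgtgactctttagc
S100a11 (chr3:93520246-93520545, plus strand): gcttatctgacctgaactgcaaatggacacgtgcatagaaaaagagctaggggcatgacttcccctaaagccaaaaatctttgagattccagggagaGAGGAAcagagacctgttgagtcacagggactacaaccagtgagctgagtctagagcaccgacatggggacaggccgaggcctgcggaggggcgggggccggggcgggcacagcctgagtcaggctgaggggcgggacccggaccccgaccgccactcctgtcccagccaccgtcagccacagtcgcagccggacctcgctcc

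TATAAA was found in the promoters of S100a4, S100a8 and S100a9, and in 13.6% of 32817 promoters. The match began 31 bases before the gene start in S100a4 and 30 before it in S100a8. In S100a9 it began at the annotated start itself. The C/EBP letters were in S100a8 and S100a9 among the members and in 40.7% of all promoters, so they are common. The PU.1 letters were in S100a4, S100a8 and S100a11 and in 28.3% of all promoters. In S100a8 a reversed PU.1 match (TTCCTC) directly adjoins TATAAA, so the capitals run together there. The glucocorticoid receptor letters were in none of the 6 promoters and in 0.475% of all. These are matches of letters, not sites shown to be bound.

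In unstressed mice the family was highest in Ly6Chigh monocytes, but not gene by gene. S100a4, S100a6, S100a8, S100a9 and S100a11 had their highest mean there, whereas S100a10 had its highest means in B and T cells, and S100a13 in T cells was close behind. Each CON comparison came from a single edgeR fit of all 12 groups, with p-values adjusted over 24248 genes.

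In CON mice, S100a8 was at 23.1 ± 15.1 CPM in Ly6Chigh monocytes (SD, n = 6), and single libraries ran from 0.845 to 44.4 CPM. The 4 CON libraries of Ly6Clow monocytes held 0, 0, 0 and 0.447 CPM, and the means in T and B cells were 0.0904 and 0.00376 CPM. S100a9 was at 55.6 ± 46.4 CPM in Ly6Chigh monocytes (SD, n = 6), against means of 0.335 CPM in T cells, 0.144 CPM in Ly6Clow monocytes and 0.0148 CPM in B cells. Both calprotectin genes were thus a property of the Ly6Chigh libraries, with a spread among them of more than an order of magnitude. Outside Ly6Chigh monocytes, neighbouring means of S100a8 and S100a9 did not differ beyond their spread. The Ly6Chigh mean exceeded that of Ly6Clow monocytes with adjusted p = 6.26e-05 for S100a8 and 0.000221 for S100a9 (edgeR), and no fold is given because the low side rests on few counts.

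S100a6, which encodes a regulator of the cytoskeleton and cell growth, fell stepwise over the cell types. Its CON levels were 226 ± 25.7 CPM in Ly6Chigh monocytes (SD, n = 6), 44.1 ± 3.90 CPM in Ly6Clow monocytes (SD, n = 4), 19.5 ± 11.3 CPM in T cells (SD, n = 6) and 4.41 ± 2.19 CPM in B cells (SD, n = 6). Each step passed the test. The log2 differences were 2.35 between the monocyte types (SE 0.40, edgeR adjusted p = 7.72e-06), 1.18 between Ly6Clow monocytes and T cells (SE 0.36, edgeR adjusted p = 0.00725) and 2.14 between T and B cells (SE 0.35, edgeR adjusted p = 1.14e-06).

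S100a4, a gene known from moving fibroblasts and tumour cells, was low throughout, though reads over bases shared with Gm42674 may be uncounted. It was at 2.89 ± 0.961 CPM in Ly6Chigh monocytes, 0.447 ± 0.281 CPM in Ly6Clow monocytes and 0.117 ± 0.198 CPM in CON T cells (SD, n = 6, 4 and 6). No count was seen in the 6 CON or the 6 SUS libraries of B cells. With a floor of 3 counts over the group, Ly6Chigh monocytes were at least 195-fold higher than B cells in CON and at least 276-fold higher in SUS mice. The difference from Ly6Clow monocytes was 2.69 on the log2 scale (SE 0.98, edgeR adjusted p = 0.0496). That call was lost in each of the 10 fits that left out a CON library of either monocyte type and in the 4 other settings tried, with adjusted p between 0.0510 and 0.153.

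S100a10, the annexin A2 partner, had another order. It was at 181 ± 36.6 CPM in B cells, 171 ± 27.7 CPM in T cells, 137 ± 15.1 CPM in Ly6Chigh and 42.1 ± 6.00 CPM in Ly6Clow monocytes of CON mice (SD, n = 6, 6, 6 and 4). No pair of the first 3 passed, with log2 differences of 0.08 between B and T cells (edgeR adjusted p = 0.831) and 0.32 between T cells and Ly6Chigh monocytes (edgeR adjusted p = 0.181). Ly6Chigh monocytes minus B cells came to -0.40 (95% interval -0.79 to -0.02, edgeR unadjusted p = 0.0395, adjusted p = 0.0817), which passed with only the CON libraries in the fit (-0.37, edgeR adjusted p = 0.0147). Ly6Clow monocytes stood below Ly6Chigh monocytes by 1.70 (SE 0.23, edgeR adjusted p = 2.71e-08).

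S100a11, which binds annexin A1, was at 90.2 ± 10.4 CPM in Ly6Chigh and 51.3 ± 5.88 CPM in Ly6Clow monocytes, 40.4 ± 9.17 CPM in B cells and 29.9 ± 5.71 CPM in T cells (SD, n = 6, 4, 6 and 6). Only the first step passed, with a log2 difference of 0.81 (SE 0.22, edgeR adjusted p = 0.00452). S100a13 was at 29.7 ± 10.2 CPM in Ly6Chigh monocytes, 22.7 ± 5.06 CPM in T cells, 16.6 ± 2.58 CPM in B cells and 9.70 ± 2.03 CPM in Ly6Clow monocytes (SD, n = 6, 6, 6 and 4). For S100a13 only the last step passed (log2 difference 0.77, SE 0.24, edgeR adjusted p = 0.00667).

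Counted over the family, all 7 members were higher in Ly6Chigh than Ly6Clow monocytes, where 7.96% of the genes tested were higher. That count was 6, without S100a4, in the 10 fits that left out a CON library and in the 4 other settings. Against B cells 6 were higher (22.3% of genes tested), all but S100a10, and against T cells 5 were higher (21.2% of genes tested), all but S100a10 and S100a13. Ly6Clow monocytes exceeded B cells in S100a4 and S100a6 (21.5% of genes were higher) and fell below them in S100a10 and S100a13, where 38.9% of genes passed in either direction. They exceeded T cells in S100a6 and S100a11 (19.6% of genes were higher) and were below them in the same S100a10 and S100a13, where 35.7% passed in either direction. B cells were below T cells in S100a4 and S100a6, where 28.9% of genes passed in either direction. On the scale per kilobase of exon, which allows genes to be compared, S100a11 (176 CPM per kb) and S100a6 (165 CPM per kb) had the highest CON means in Ly6Chigh monocytes, followed by S100a10 (113), S100a9 (106), S100a13 (41.6), S100a8 (33.2) and S100a4 (4.95). S100a10 led in B cells (149 CPM per kb) and T cells (141 CPM per kb), and S100a11 in Ly6Clow monocytes (100.5 CPM per kb). The S100a4 value is scaled by all its exonic bases, also those shared with Gm42674, and may be too low.

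**Figure D1:**
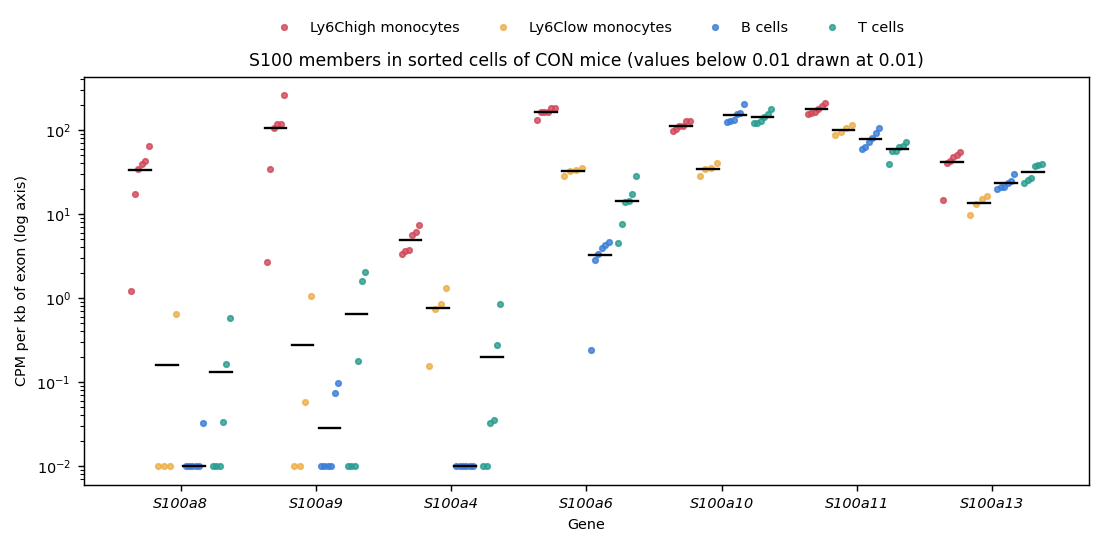
Levels of the 7 members in CON libraries of each cell type, in CPM per kilobase of exon on a log axis, with a point per library and a bar at the group mean, and values below 0.01 drawn at 0.01. S100a8, S100a9 and S100a4 are near the bottom outside Ly6Chigh monocytes, whereas S100a10, S100a11 and S100a13 are present in all 4 cell types.

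The next question was whether chronic stress altered the family within each cell type. In Ly6Chigh monocytes, S100a6, S100a10, S100a11 and S100a13 rose in SUS mice to between 2.02 and 2.48 times the CON level. S100a8 and S100a9 had higher means in SUS mice but varied too much between libraries to pass, and S100a4 did not pass either. Thus 4 of 7 members passed in this comparison, all higher, where 8.78% of 16955 genes tested were higher at an adjusted p under 0.05. The 4 also exceeded a log2 fold change of 1, as did 2.28% of genes. The median log2 fold change was 1.06 over the members and -0.05 over all genes.

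S100a11 was between 80.2 and 107 CPM in CON libraries of Ly6Chigh monocytes (median 87.2), between 117 and 350 CPM in SUS (median 238) and between 105 and 236 CPM in RES (median 132). Every SUS library was above every CON library, and the RES libraries overlapped both groups. The log2 fold change of SUS vs. CON was 1.31 (SE 0.23, edgeR adjusted p = 0.00145).

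S100a6 was between 180 and 253 CPM in CON (median 225), between 277 and 870 CPM in SUS (median 451) and between 255 and 529 CPM in RES (median 396). No SUS or RES library reached down to the CON range. The log2 fold change was 1.06 for SUS vs. CON (SE 0.22, edgeR adjusted p = 0.00288) and 0.77 for RES vs. CON (SE 0.22, edgeR adjusted p = 0.0401).

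S100a10 was between 119 and 155 CPM in CON (median 135), between 151 and 505 CPM in SUS (median 274) and between 183 and 328 CPM in RES (median 213). Of the SUS libraries, 5 of 6 were above all CON libraries, and all 6 RES libraries were. The log2 fold change was 1.01 for SUS vs. CON (SE 0.21, edgeR adjusted p = 0.00379) and 0.76 for RES vs. CON (SE 0.21, edgeR adjusted p = 0.0416).

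S100a13 was between 10.4 and 38.6 CPM in CON (median 32.0), between 45.6 and 112 CPM in SUS (median 54.7) and between 34.6 and 66.2 CPM in RES (median 46.8). All SUS libraries were above all CON libraries. The log2 fold change of SUS vs. CON was 1.06 (SE 0.26, edgeR adjusted p = 0.00980). Over the family, S100a6, S100a11 and S100a13 separated SUS from CON libraries completely, as did 4.68% of genes in the same direction.

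The calprotectin genes spread widely in each group of Ly6Chigh monocytes. S100a8 was between 0.845 and 44.4 CPM in CON (median 25.6), between 6.57 and 172 CPM in SUS (median 58.1) and between 6.34 and 102 CPM in RES (median 39.0). S100a9 was between 1.38 and 135 CPM in CON (median 58.6), between 12.3 and 383 CPM in SUS (median 97.6) and between 3.20 and 215 CPM in RES (median 71.4). The groups overlapped for both genes. The log2 fold change of SUS vs. CON was 1.80 for S100a8 (SE 0.85, 95% interval -0.01 to 3.62, edgeR adjusted p = 0.192) and 1.22 for S100a9 (SE 1.04, 95% interval -0.98 to 3.42, edgeR adjusted p = 0.502), so neither an absence of change nor a change of several fold was distinguishable for either gene. S100a4 was between 1.95 and 4.30 CPM in CON, between 1.92 and 5.95 CPM in SUS and between 2.11 and 4.37 CPM in RES, with medians of 2.72, 4.78 and 3.33 CPM. Its log2 fold change of SUS vs. CON was 0.58 (SE 0.39, edgeR adjusted p = 0.374).

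**Figure D2:**
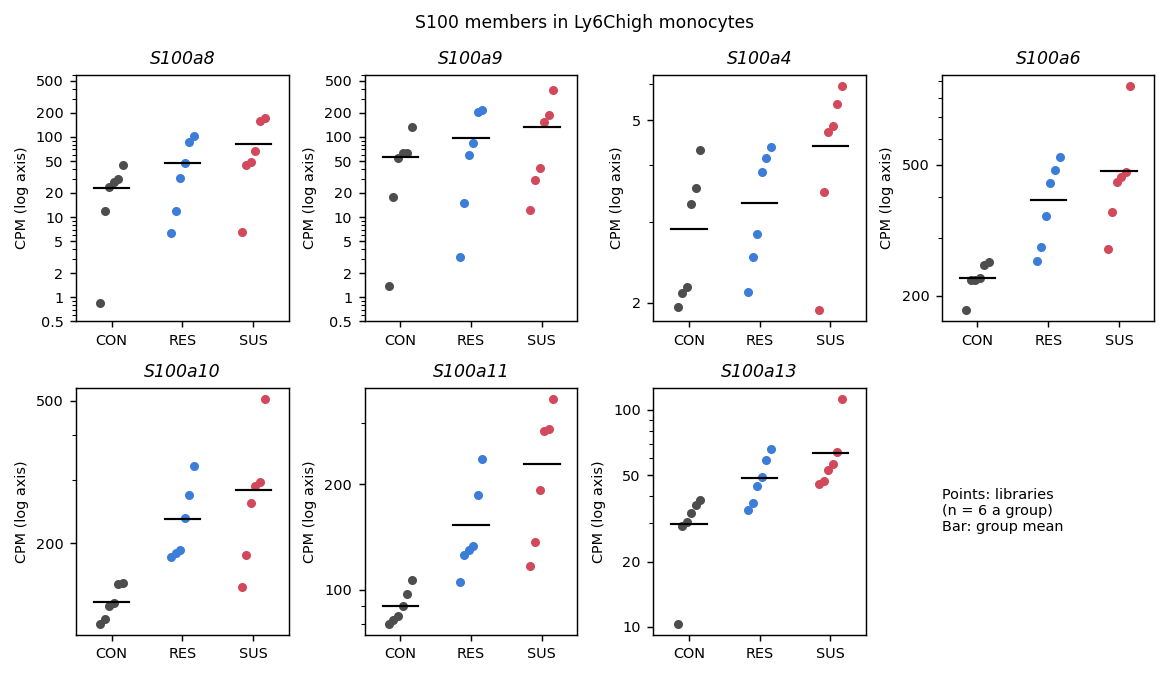
Levels of the 7 members in single libraries of Ly6Chigh monocytes by condition (n = 6 each), in CPM on a log axis, with a bar at the group mean. The SUS points of S100a6, S100a11 and S100a13 sit wholly above the CON points, whereas those of S100a8 and S100a9 spread over the CON range and beyond.

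In RES mice 2 of 7 members passed against CON, S100a6 and S100a10, where 3.71% of genes were higher, and neither exceeded a log2 fold change of 1. The same 2 members separated RES from CON libraries completely, as did 2.85% of genes in that direction. The other log2 fold changes of RES vs. CON were 0.75 for S100a11 (SE 0.23, edgeR adjusted p = 0.0558), 0.69 for S100a13 (SE 0.26, edgeR adjusted p = 0.12), 1.02 for S100a8, 0.77 for S100a9 and 0.18 for S100a4. S100a11 passed with DESeq2 (adjusted p = 0.0460), with only the 2 groups in the fit (0.00949) and without both Ly6Chigh libraries richest in red cell RNA (0.0178). These calls were near the threshold. With a CON, SUS or RES library left out in turn, S100a6 passed in 8 and S100a10 in 7 of 18 fits, and the count of members ranged from 0 to 3. Both comparisons share the CON libraries.

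No member differed between SUS and RES mice by edgeR's test, in which 0.00590% of genes passed in either direction (620 genes at an unadjusted p under 0.05), and none differed by DESeq2. The log2 differences of SUS minus RES ran from 0.26 for S100a10 to 0.78 for S100a8. The S100a11 difference was 0.56 (SE 0.23, 95% interval 0.09 to 1.03, edgeR unadjusted p = 0.0205, adjusted p = 0.999). For S100a6 the interval was -0.15 to 0.74, so these data do not show that the 2 stressed groups were alike.

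Red cell RNA also differed between these libraries. The summed level of 6 red cell genes (Hba-a1, Hba-a2, Hbb-bs, Hbb-bt, Alas2 and Slc4a1) was between 343 and 1215 CPM in CON libraries of Ly6Chigh monocytes (median 608), between 1097 and 8988 CPM in SUS (median 1682) and between 1077 and 4348 CPM in RES (median 1851). All 6 genes rose in SUS mice, with log2 fold changes between 1.95 and 4.03 (edgeR), and 1 of 6, Slc4a1, in RES mice. Over the 18 Ly6Chigh libraries, log2 levels correlated with the red cell sum with Pearson's r of 0.86 for S100a6, 0.83 for S100a10, 0.83 for S100a13 and 0.72 for S100a11, against 0.20 for S100a8 and 0.03 for S100a9. These points share library depth and group. Within the 6 SUS libraries r was 0.94 for S100a6, 0.96 for S100a13, 0.88 for S100a10 and 0.70 for S100a11, within the 6 RES libraries it was 0.39, 0.39, 0.08 and 0.08, and within the 6 CON libraries 0.47, 0.68, 0.67 and -0.12. With the red cell markers as a covariate, none of the 4 members passed in SUS vs. CON, as for nearly every gene, since 2 of 16955 genes passed in that fit against 2139 without the covariate. The log2 fold changes were then 0.34 for S100a6 (edgeR adjusted p = 0.841), 0.35 for S100a10 (0.844), 0.84 for S100a11 (0.488) and 0.30 for S100a13 (0.927). Without the SUS and the RES library that held the most red cell RNA, an alternative added after the data were seen, the same 4 members passed, with log2 fold changes of 0.76, 0.72, 1.10 and 0.77. The red cell sums of SUS and RES libraries lay mostly above those of CON libraries. The covariate fit therefore cannot tell red cell RNA and stress apart, and the part of red cell RNA in these changes was not tested.

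Neutrophil markers moved with S100a9 instead. The sum of 8 neutrophil genes was between 16.3 and 261 CPM in CON (median 135), between 20.5 and 749 CPM in SUS (median 189) and between 7.35 and 446 CPM in RES (median 155), and 0 of the 6 that could be tested passed in SUS vs. CON. Most of this sum was the granule gene Ngp (median 104 CPM in CON and 155 CPM in SUS). Camp, another granule gene, had a mean of 31.0 CPM over the 18 Ly6Chigh libraries. Ly6g, Cxcr2 and Stfa2l1 reached at most 1.13, 1.62 and 0.294 CPM. The remaining genes of the sum, Mmp9, Retnlg and Il1r2, are not given singly. The neutrophil sum correlated over the 18 libraries with r of 0.94 for S100a9 and 0.79 for S100a8, against -0.01 for S100a6. A sum of 5 genes of granule-forming progenitors (Elane, Mpo, Prtn3, Ctsg and Fcnb) had a CON median of 19.7 CPM, a SUS median of 47.6 CPM and a RES median of 41.3 CPM, and correlated with r of 0.88 for S100a8, 0.76 for S100a9, 0.65 for S100a6, 0.64 for S100a10, 0.59 for S100a13 and 0.56 for S100a11. Of these 5 genes, Prtn3 (log2 fold change 3.54, edgeR adjusted p = 0.000166) and Fcnb (1.67, edgeR adjusted p = 0.0460) rose in SUS mice, and Prtn3 in RES mice. The Ly6Chigh monocyte marker Ly6c2 also rose in SUS mice (0.82, edgeR adjusted p = 0.0243). The part of these markers in the changes of the members was not tested. With the neutrophil markers as a covariate the same 4 members passed in SUS vs. CON, and the log2 fold change of S100a8 was 1.11 (SE 0.50, edgeR adjusted p = 0.171). That of S100a9 was -0.0034, against 1.22 without the covariate.

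**Figure D3:**
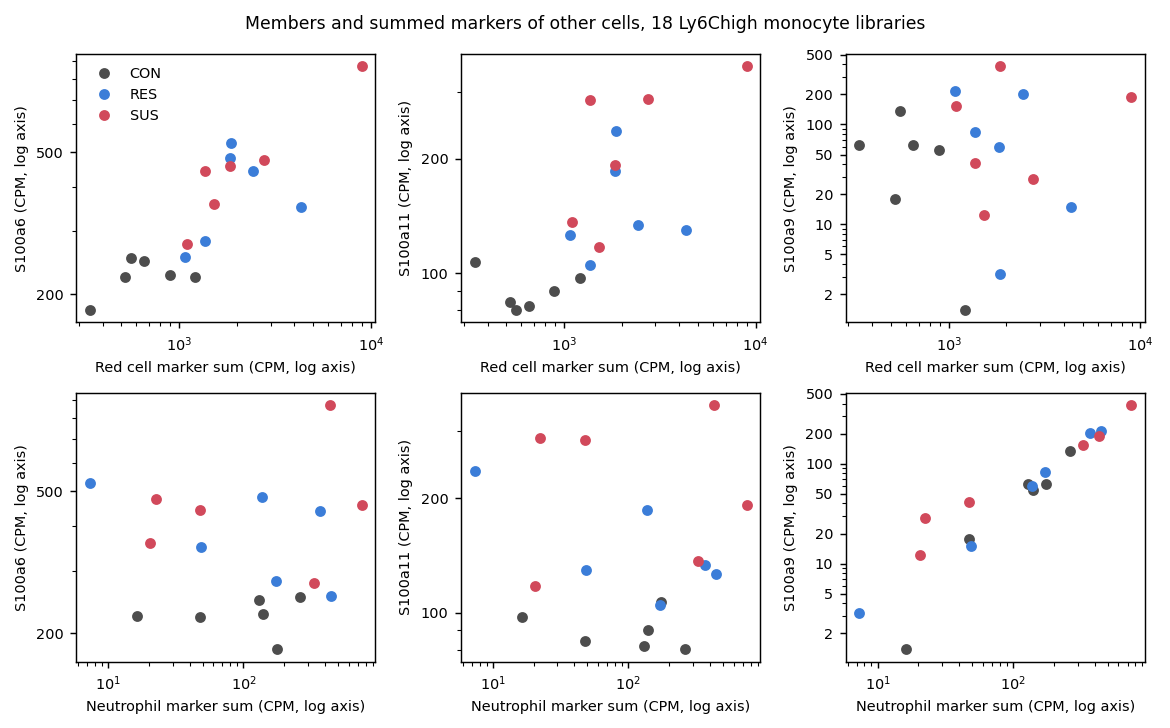
Levels of S100a6, S100a11 and S100a9 (CPM, log axis) against the summed red cell markers (top row) and neutrophil markers (bottom row, both CPM on log axes) in the 18 Ly6Chigh libraries, coloured by condition. S100a6 climbs with the red cell sum and not with the neutrophil sum, and S100a9 does the reverse.

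The members differed in how closely they followed each other in Ly6Chigh monocytes. S100a6 and S100a10 correlated with r of 0.95, S100a10 and S100a11 with 0.91, S100a6 and S100a13 with 0.89, S100a11 and S100a13 with 0.71, and S100a8 and S100a9 with 0.92, whereas S100a9 correlated with S100a6 and S100a11 with 0.13 and 0.08 (18 libraries, log2 levels). S100a8 lay between, with r of 0.39 to each of S100a6, S100a10 and S100a11, and S100a4 had r between 0.48 and 0.59 with S100a6, S100a10, S100a11 and S100a13. Among 8125 genes with a mean of at least 10 CPM, the genes nearest to S100a9 were Ngp (0.96), Camp (0.95) and Ltf (0.95), which encode neutrophil granule proteins. Nearest to S100a8 were S100a9 (0.92), Fcnb (0.92) and Lcn2 (0.91). The nearest gene to S100a10 was Anxa2 (0.97), which encodes its binding partner, before Eif3i (0.97) and Cndp2 (0.97). Nearest to S100a6 were Pkm (0.99), Atp5e (0.99) and Rps15 (0.98), nearest to S100a11 were Arhgdib (0.95), Atp5h (0.95) and the pseudogene Gm13394 (0.94), and nearest to S100a13 were the pseudogene Gm6180 (0.95), Psmd4 (0.93) and Eif3b (0.93). S100a4 was too low for this comparison.

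Over all 68 libraries, S100a8 and S100a9 were nearest to each other (0.97), with Lcn2 and Ltf next to both. Anxa2 was nearest to S100a6 (0.94), Tmsb10 to S100a10 (0.93), P4hb to S100a11 (0.94) and Tspo to S100a13 (0.89). These values follow differences between cell types as well as conditions.

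S100A8 and S100A9 join in 1 complex, so their ratio was compared within each library, with 0.5 CPM added to both. The mean log2 ratio of S100a8 to S100a9 in Ly6Chigh monocytes was -1.0 ± 0.449 for CON, -0.43 ± 0.769 for SUS and -0.58 ± 1.15 for RES libraries (SD, n = 6 each). The difference was 0.57 for SUS vs. CON (p = 0.154 by a two-sided exact permutation test, and 0.562 after adjustment over the 6 comparisons made) and 0.42 for RES vs. CON (exact permutation p = 0.584, adjusted 0.877), where 0.00216 was the smallest p that the test could give. S100a8 had the higher CPM in 3 libraries, SUS replicate 1 (44.2 vs. 41.5 CPM), SUS replicate 3 (48.6 vs. 28.7 CPM) and RES replicate 6 (11.8 vs. 3.20 CPM), and in no CON library. These CPM are not scaled for exon length, which is 694 bases for S100a8 and 522 for S100a9. A log2 ratio of 0 therefore does not mark equal levels per kilobase. In Ly6Clow monocytes, with levels near 0, the differences were -0.49 for SUS vs. CON (exact permutation p = 0.281, adjusted 0.562) and -0.04 for RES vs. CON (exact permutation p = 0.933). Between SUS and RES mice they were 0.15 in Ly6Chigh and -0.45 in Ly6Clow monocytes (exact permutation p = 0.801 and 0.195).

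**Figure D4:**
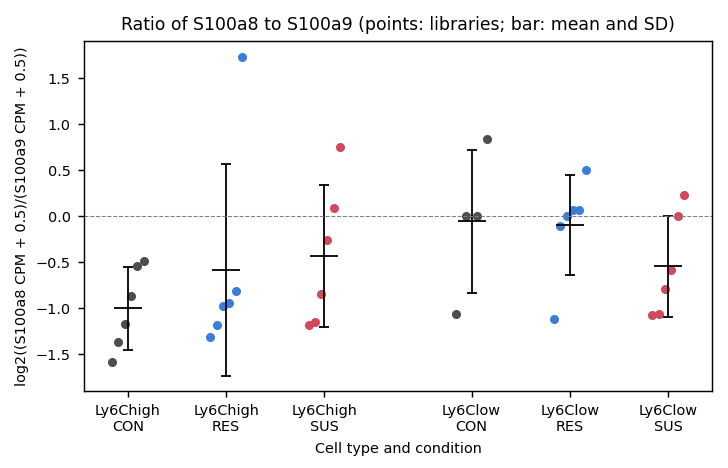
Log2 ratio of S100a8 to S100a9 per library in both monocyte types by condition, with 0.5 CPM added to each level, and bars for the mean and SD. The 3 Ly6Chigh libraries above 0 are 2 of SUS and 1 of RES mice. Levels are not scaled for exon length, so 0 does not mark equal levels per kilobase.

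In Ly6Clow monocytes no member passed in any comparison. For SUS vs. CON 0.241% of 19521 genes passed in either direction (47 genes, and 1857 at an unadjusted p under 0.05), and for RES vs. CON 0.0256%. Closest was S100a13, at 9.49, 11.6, 6.95 and 10.7 CPM in the 4 CON libraries and between 11.8 and 21.6 CPM in SUS (median 18.8). Every SUS library was above every CON library, as for 1.13% of genes. Its log2 fold change was 0.84 (SE 0.21, edgeR unadjusted p = 0.000561, adjusted p = 0.0978, DESeq2 adjusted p = 0.0173), so the call depended on the tool. S100a6 had log2 fold changes of 0.31 for SUS vs. CON and 0.41 for RES vs. CON (edgeR unadjusted p = 0.0409 and 0.00791). S100a8 was between 0 and 3.15 CPM in SUS (median 1.17) and between 0 and 1.26 CPM in RES (median 0.116), and S100a9 between 0 and 5.81 CPM in SUS (median 1.52), against 0.545, 0, 0 and 0.0298 CPM in CON.

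In T cells 0.0424% of 18860 genes passed for SUS vs. CON (8 genes, and 906 at an unadjusted p under 0.05), and no member was among them. S100a11 was between 20.1 and 36.8 CPM in CON (median 30.5) and between 34.8 and 52.7 CPM in SUS (median 44.5), so the ranges overlapped narrowly. Its log2 fold change was 0.57 (SE 0.14, edgeR adjusted p = 0.167), and it passed with DESeq2 (adjusted p = 0.0291). S100a6 was between 6.15 and 38.4 CPM in CON (median 19.2) and between 17.0 and 52.8 CPM in SUS (median 41.5), with a log2 fold change of 0.94 (SE 0.35, edgeR adjusted p = 0.718). S100a10 changed by 0.31 (SE 0.12, edgeR adjusted p = 0.754), and S100a8 was too low to be tested.

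In B cells 0.00568% of 17620 genes passed for SUS vs. CON (1 gene, and 602 at an unadjusted p under 0.05). No member passed with edgeR or DESeq2, and S100a4 and S100a8 were too low to be tested. S100a6 was between 0.331 and 6.37 CPM in CON (median 5.03) and between 5.41 and 19.1 CPM in SUS (median 8.79), with a log2 fold change of 1.21 (SE 0.42, edgeR unadjusted p = 0.00874, adjusted p = 0.999). S100a9 had at most 2 counts in any CON library and up to 54 in SUS (median 0.777 CPM, edgeR unadjusted p = 0.00215, adjusted p = 0.807). The neutrophil marker sum in B cells had a median of 0.182 CPM in CON and 1.86 CPM in SUS libraries. The part of neutrophil RNA in the S100a9 values was not tested. The log2 fold changes of S100a10, S100a11 and S100a13 were -0.23, -0.01 and -0.20. For RES vs. CON no gene passed in B or T cells by edgeR (560 and 775 at an unadjusted p under 0.05), and no member passed with DESeq2.

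**Figure D5:**
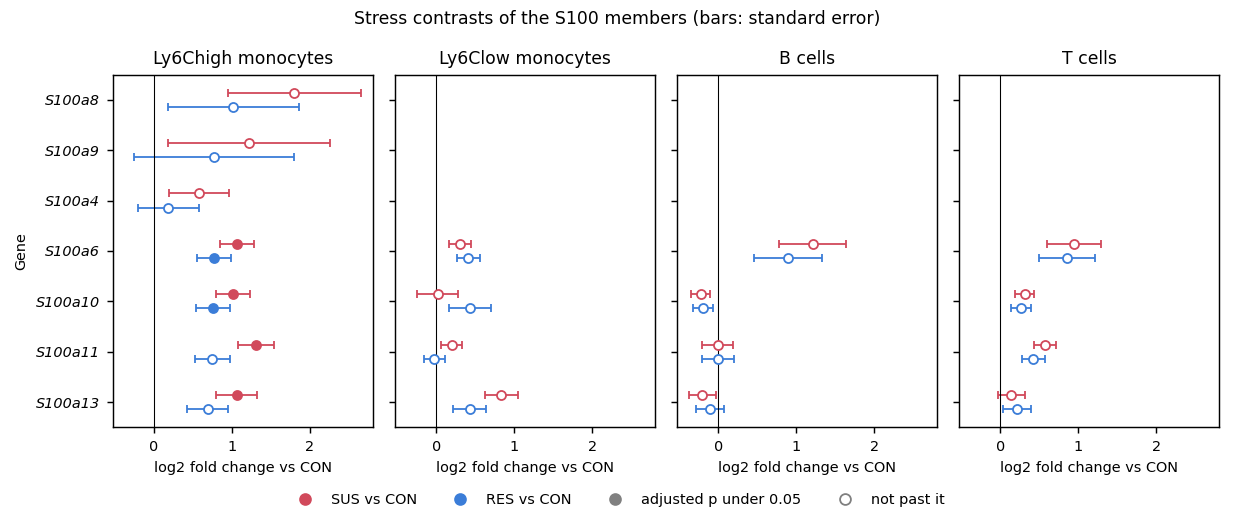
Log2 fold changes of the members vs. CON in SUS and RES mice for each cell type, with bars of 1 SE and filled symbols at an adjusted p under 0.05 (edgeR), leaving out members whose CON mean was below 1 CPM. Filled symbols appear in Ly6Chigh monocytes, at S100a6, S100a10, S100a11 and S100a13 for SUS and at S100a6 and S100a10 for RES.

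Whether the SUS response itself differed between cell types was tested as an interaction over all 68 libraries. The labels do not say whether libraries of different cell types came from the same mice, and the fit took them as independent. In the order of the labels, the second RES library had the highest red cell sum of its group in each cell type (4348, 3919, 9704 and 4646 CPM in Ly6Chigh and Ly6Clow monocytes, B cells and T cells). The fifth SUS library had the highest of its group in the first 3 of these (8988, 2691 and 12799 CPM). In T cells it had 3734 CPM, below the 4496 CPM of the third SUS library. Pairing by this order was not tested, and the p-values ignore any pairing by mouse. Against B cells, S100a10, S100a11 and S100a13 rose more in Ly6Chigh monocytes, by 1.27 (SE 0.27, edgeR adjusted p = 0.00265), 1.35 (SE 0.27, edgeR adjusted p = 0.00138) and 1.29 (SE 0.29, edgeR adjusted p = 0.00471) on the log2 scale, where 4.02% of 24248 genes were higher. These 3 passed in the 4 other settings and the 24 fits that left out a library. Neither the red cell nor the neutrophil covariate was among these settings. Against Ly6Clow monocytes only S100a11 passed (1.14, SE 0.28, edgeR adjusted p = 0.0468), where 0.260% of genes were higher. That call was lost in all 4 other settings and in 19 of 22 fits that left out a library. Against T cells no member passed by edgeR (2.20% of genes were higher, and 3 members had an unadjusted p under 0.05). The differences there were 0.72 for S100a10 (edgeR adjusted p = 0.117), 0.76 for S100a11 (0.0927) and 0.94 for S100a13 (0.0556). S100a6, which rose in Ly6Chigh monocytes, did not differ detectably in its response from any other cell type, with differences of -0.11 against B cells (95% interval -1.05 to 0.83), 0.14 against T cells (-0.79 to 1.06) and 0.77 against Ly6Clow monocytes (-0.20 to 1.75). S100a4 could not be estimated against B cells, where it had no counts.

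The other genes of the pathway were taken from fixed lists. Of 10 other listed genes with S100 names, 4 could be tested in Ly6Chigh monocytes, and 1 rose in SUS mice. Among all genes tested there, 8.78% were higher. S100a1, a neighbour of S100a13, was between 8.80 and 15.1 CPM in CON (median 10.8) and between 11.1 and 40.2 CPM in SUS (median 24.8), with a log2 fold change of 1.11 (SE 0.27, edgeR adjusted p = 0.00966). With the red cell markers as a covariate its log2 fold change was 0.44 (edgeR adjusted p = 0.864), and with the neutrophil markers 1.15 (edgeR adjusted p = 0.0114). S100pbp, which is named for the binding of S100P and is not itself an S100 gene, did not pass (-0.41, edgeR adjusted p = 0.396).

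Of 13 receptors, partners and signalling genes, 4 were higher and 1 was lower in SUS than CON mice. Over all 16955 genes tested there, 1488 were higher and 651 lower. With the red cell markers as a covariate none of the 13 passed, and with the neutrophil markers 5 did. Myd88, the adaptor of TLR4, rose by 1.26 (SE 0.24, edgeR adjusted p = 0.00206), from a median of 108 CPM in CON to 248 CPM in SUS. Anxa2, the partner of S100a10, rose by 0.95 (SE 0.20, edgeR adjusted p = 0.00431), Anxa1, the partner of S100a11, by 0.61 (SE 0.15, edgeR adjusted p = 0.0107), and Bsg, a receptor of S100A9, by 0.95 (SE 0.19, edgeR adjusted p = 0.00312). Ahnak, a scaffold bound by the S100A10 complex, fell by 0.53 (SE 0.14, edgeR adjusted p = 0.0136). The receptors Tlr4 (0.58, edgeR adjusted p = 0.185), Ager, which encodes RAGE (-0.86, 0.328), and Cd36 (-1.12, 0.0754) did not pass. In RES mice Myd88 (0.98, edgeR adjusted p = 0.0240), Bsg (0.68, 0.0431) and Anxa2 (0.71, 0.0446) passed, all higher, where 3.71% of genes were higher. With the red cell or the neutrophil covariate 0 and 1 of the 13 passed. None of the 13 passed in Ly6Clow monocytes, B cells or T cells by edgeR, where between 10 and 12 could be tested and at most 5 had an unadjusted p under 0.05.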

How the data were processed

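Raw read counts per Ensembl gene of 70 libraries were used as the authors deposited them, as a table of counts without normalization. Per the labels and the study's methods, RNA was taken from sorted leukocytes, libraries were made with a SMARTer stranded total RNA kit, paired 150 base reads were mapped to mm10 with HISAT2, and reads were counted with HTSeq. The strand option and the treatment of duplicates and multimapping reads are not given in the sources used here. The authors used DESeq2 for their own tests.

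Members and lists were chosen with earlier results of these data known. Of 52636 rows, 52403 were matched by identifier to GENCODE M21. Libraries 52 and 70 were left out. The software was R 4.3.3, edgeR 4.0.16, limma 3.58.1 and DESeq2 1.42.0. Within a cell type, low genes were removed with filterByExpr, libraries were scaled by TMM, a robust quasi-likelihood model was fitted, and SUS, RES and CON libraries were compared by the quasi-likelihood F test with Benjamini-Hochberg adjustment over all genes tested. A gene passed at an adjusted p under 0.05. The SE was obtained from the log2 fold change and its F value (size of the change over the root of F), and 95% intervals are this SE times the t quantile at the degrees of freedom of that F test. Cell types in CON mice and the interactions were tested in a single fit of 12 group means. Fits of that model without 1 library kept the dispersion trend of the full fit. The ratio of S100a8 to S100a9 was compared by exact permutation tests with Python 3.11.15 and scipy 1.17.1. Correlations are Pearson's r of log2 of CPM plus 0.5 and are descriptive. The scripts were tested on simulated data.

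The genes named are the 7 members, listed receptors and partners, and for each member the 3 genes with the highest correlation. Other listed genes with S100 names are given where their mean was at least 1 CPM in some group. S100g was listed but not given values because it was near that limit. Depth, between 19769835 and 67038231 counts, limits the precision at low levels. Floors cover counting error only, since the counts are of reads and not of molecules. No library duplicated another of the same cell type and condition, and pairs across these groups were not compared. The alternatives were DESeq2, edgeR with the size factors of DESeq2, all genes kept without a filter, only the groups compared, libraries 52 and 70 kept, mitochondrial, hemoglobin, Gm23935 and Gm26917 rows left out, red cell or neutrophil markers as a covariate, pseudocounts of 0.1 and 1 CPM, and each library left out in turn. The removal of both Ly6Chigh libraries with the most red cell RNA was added after the data were seen.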

Additional observations from a re-analysis of the deposited data

Results flagged for a closer look

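A gap test within groups of 4 to 6 libraries picked 3 of 59 sets of values, and chance alone gives about 1 in 20, which is 3. S100a6 in Ly6Chigh monocytes of SUS replicate 5 was at 870 CPM, against 476 CPM for the next SUS library, and the SUS mean without it was 402 CPM. S100a13 in the same library was at 112 CPM, against 64.0 CPM for the next, and the SUS mean without it was 53.2 CPM. That library also had the highest red cell marker sum, 8988 CPM. S100a13 in Ly6Chigh monocytes of CON replicate 1 was at 10.4 CPM, against 29.1 CPM for the next lowest, and the CON mean without it was 33.6 CPM.

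The SUS vs. CON change differed between cell types by the interaction test for S100a11 against Ly6Clow monocytes (log2 difference 1.14) and for S100a10, S100a11 and S100a13 against B cells (1.27, 1.35 and 1.29). The call against Ly6Clow monocytes was lost in all 4 other settings and in 19 of 22 fits that left out a library.

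Library 52, labelled B cells of a RES mouse and left out of all comparisons, held 43.0 CPM of S100a6 and 28.9 CPM of S100a13, above the highest B cell CON library (6.37 and 20.5 CPM), all on TMM scaling of the 70 libraries. Its Cd3e level was 412 CPM.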

How the results depend on the processing

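Over all comparisons and alternatives 3034 values of members were recomputed, of which 103 changed sign, none past the threshold in either setting, 68 lost the threshold and 30 gained it. In Ly6Chigh monocytes 4 members passed for SUS vs. CON in all 18 fits without 1 library and in 7 of 8 alternatives, and 0 with the red cell covariate, under which 2 of 16955 genes passed. For RES vs. CON the count was 0 with DESeq2 size factors, with the red cell covariate and with the neutrophil covariate, 3 with DESeq2, with only the 2 groups in the fit and without the 2 libraries richest in red cell RNA, and 0 to 3 with libraries left out in turn. DESeq2 gave 1 member for SUS vs. CON in Ly6Clow monocytes (S100a13) and 1 in T cells (S100a11), and leaving out libraries gave 0 to 1 in Ly6Clow monocytes. The count of the interaction against Ly6Clow monocytes was 0 with DESeq2 size factors, without a filter, with libraries 52 and 70 kept and with only the 2 cell types in the fit, and 0 to 2 with libraries left out. That against T cells was 0 to 3. Signs turned for S100a9 in SUS vs. CON with the neutrophil covariate (-0.0034), for S100a4 in RES vs. CON with the red cell covariate (-0.20) and for the S100a8 to S100a9 ratio in RES vs. CON of Ly6Clow monocytes with a pseudocount of 0.1 CPM (0.19). With libraries left out this ratio ranged from -0.38 to 0.26 there, from -0.0430 to 0.57 for RES vs. CON and from -0.0860 to 0.61 for SUS vs. RES in Ly6Chigh monocytes. The causes were not tested. No paired analysis was run because the labels name no mouse and give no replicate numbers shared between groups. Levels near 0 outside Ly6Chigh monocytes limit what can be said of S100a4, S100a8 and S100a9 there.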
